A study of Homo sapiens with 4 samples.

Results

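The 48 genes described here encode the autophagy machinery and 3 transcription factors of the TFEB family. They were taken by name, with each Ensembl identifier of the deposited table matched to a gene symbol, and all 48 had a row among the 23622 genes of the table. RNA was sequenced from MV4-11, a human acute myeloid leukemia (AML) cell line, in a study of the transcription factor IRF1. The NC group (2 libraries) is the control. Its labels give no treatment and a WT genotype, but its deposited values are headed sh_NC, and the study calls its control hairpin sh-NC. In the sh-IRF1 group (2 libraries, also WT) IRF1 was knocked down with a short hairpin RNA, carried by the pLKO.1 lentiviral vector, followed by puromycin selection. The hairpin used for each library is not stated in the sources used here, and although the methods say in general that experiments were repeated independently, neither they nor the labels say that the libraries of a group came from separate cultures, so the p-values measure only the spread between these libraries, which may be technical. The comparison asks how the RNA of these genes differed after IRF1 knockdown.

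Autophagy encloses part of the cytoplasm in a double membrane, the autophagosome, which then fuses with the lysosome so that its content is broken down. A kinase complex around ULK1 starts the process, a lipid kinase complex around PIK3C3 marks the membrane, ATG9 and ATG2 proteins bring and move lipids, and a pair of ubiquitin-like conjugation systems attach proteins of the ATG8 family to the membrane. Cargo receptors bind both the cargo and ATG8 proteins, and tethers and SNARE proteins drive fusion with the lysosome. TFEB, TFE3 and MITF are related basic helix-loop-helix factors that enter the nucleus when mTORC1 signaling is low and activate genes of lysosomes and autophagy.

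The deposited values are reads per gene divided by 1 size factor per library and are called normalized counts here. The reads behind them summed to between 17635908 and 18695337 per library, and mitochondrial genes held between 3.92% and 4.51% of them. IRF1, the targeted gene, had normalized counts of 785 and 738 in NC and 430 and 432 in sh-IRF1. It was thus lower in both knockdown libraries, with 56.6% of the NC mean remaining and a log2 fold change of -0.82 (standard error 0.0904, limma adjusted p = 1.69e-10). The cells carried the RNA of AML myeloid markers, summing to between 37751 and 37823 in NC and between 33988 and 34208 in sh-IRF1. Among all tested genes 20.3% were called higher and 21.9% lower, by the threshold given below. Of 10 AML myeloid markers tested 2 were called higher (20%) and 4 lower (40%), while CD34 was near 0 in every library. FLT3, among the lower ones, had the highest counts, at 17391 and 17412 in NC and 12745 and 12634 in sh-IRF1. Of 7 tested markers of monocyte maturation, 2 were called higher (28.6%) and 4 lower (57.1%). The list summed to between 1899 and 2089 in NC and between 1916 and 1945 in sh-IRF1. That similar sum covers changes both ways, in log2 fold change. ITGAX (1.08) and ITGAM (0.64) were higher. FCGR1A (-0.57), CD86 (-0.48) and the weakly expressed CD14 (-2.81) and S100A9 (-2.20) were lower. T cell markers summed to at most 8.22, and erythroid markers were not analysed here. B cell markers summed to between 88.2 and 120 in NC and between 254 and 305 in sh-IRF1, carried by CD79A, the 1 called of 3 tested. Of 3 tested epithelial and stromal markers 2 were higher, and the list summed to between 1504 and 1657 in NC and between 3482 and 3575 in sh-IRF1, most of it PECAM1, which myeloid cells also express (COL1A1 had at most 4.97). The part of these marker changes in the results was not tested. In bulk RNA, fewer cells with a transcript and less of it per cell cannot be told apart, and no spike-in was reported.

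Differences are given as the log2 fold change of sh-IRF1 over NC after adding 1 to each normalized count, which pulls the values of weakly expressed genes toward 0. They were tested with limma, with Benjamini-Hochberg adjustment over the 14120 genes that reached a normalized count of 10 in at least 2 libraries. A gene is called higher or lower where its adjusted p is under 0.05. For 2 libraries in each group the smallest p of an exact two-sided permutation test is 0.33, and the calls thus depend on limma's pooling of the spread over genes. Of the 48 genes 47 were tested, and GABARAP was below the filter. In sh-IRF1, 19 of the 47 were called higher, or 40.4%, where 20.3% of all tested genes were called higher. Another 11 were called lower, or 23.4%, where the share among all tested genes was 21.9%. The remaining 17 were not called. With a log2 fold change beyond 0.5 as a second condition, 6 were higher (12.8%, against 8.27% of all tested genes) and 5 were lower (10.6%, against 7.56%). The median log2 fold change was 0.16 for the 47 genes and -0.002 for all tested genes. Most differences were therefore small, and the calls ran in different directions at different steps of the pathway. The groups by role are described in turn.

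**Figure D1:**
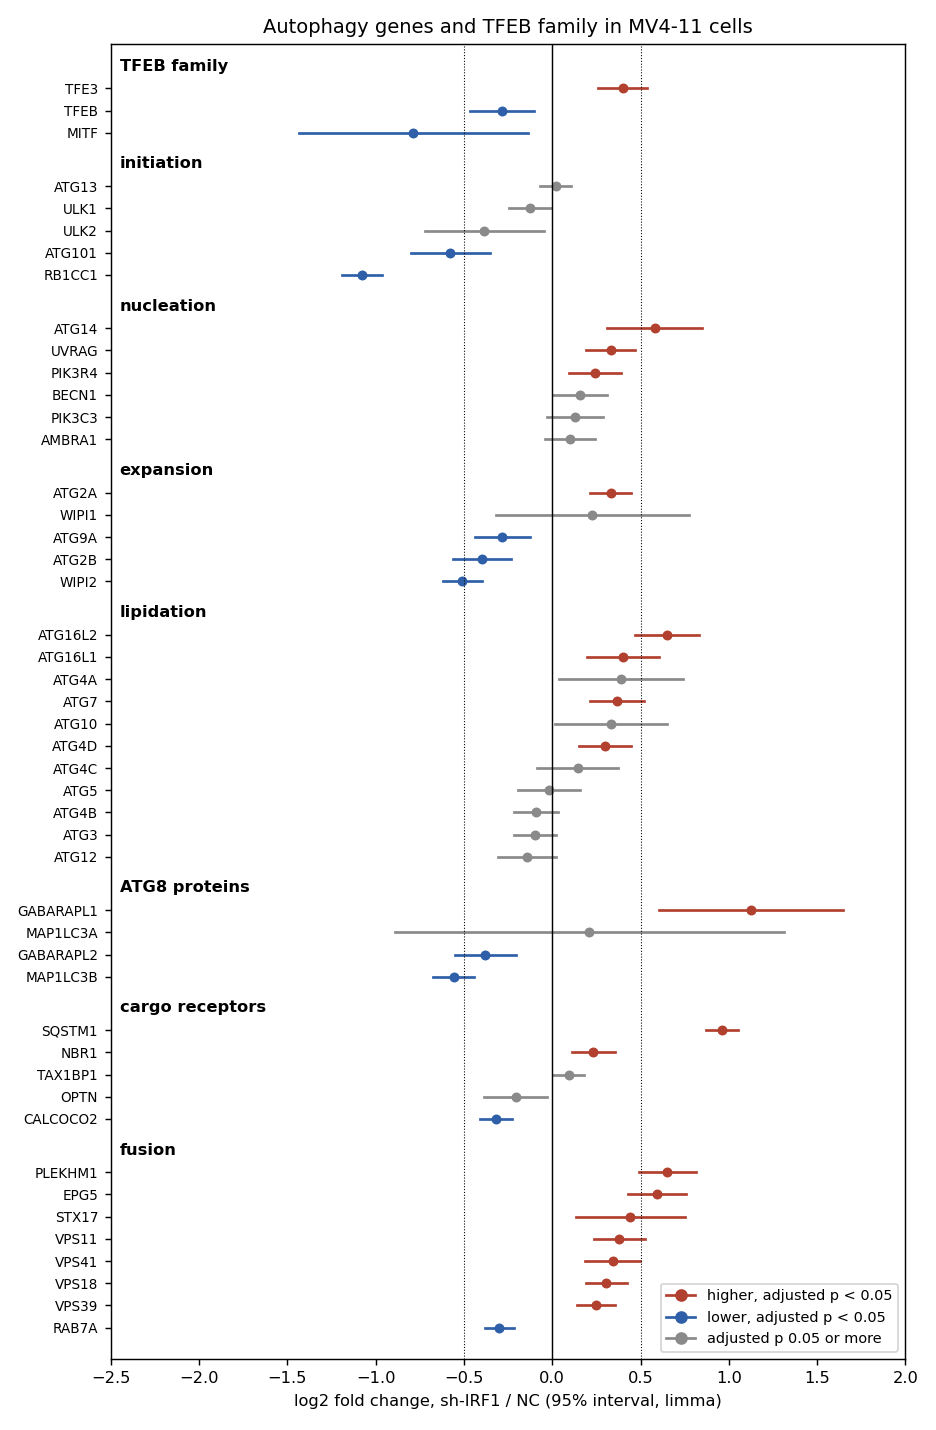
Log2 fold change of sh-IRF1 over NC (x axis) for each of the 47 tested genes, grouped by role, with the 95% interval from limma as a bar and the call as the color. Dotted lines mark a log2 fold change of 0.5 in either direction; RB1CC1 lies farthest to the left at -1.08, GABARAPL1 farthest to the right at 1.13, and 7 of the 8 fusion genes lie to the right of 0.

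Of the TFEB family, TFE3 was higher and TFEB and MITF were lower in sh-IRF1. TFE3 (ENSG00000068323, GRCh38 chrX:49028726-49043410) had normalized counts of 956 and 912 in NC and 1198 and 1264 in sh-IRF1. Both knockdown libraries stood above both controls (log2 fold change 0.40, standard error 0.0675, limma adjusted p = 3.34e-06). TFEB (ENSG00000112561, chr6:41683978-41736259) had 648 and 612 normalized counts in NC and 523 and 512 in sh-IRF1. The groups did not overlap, and the log2 fold change was -0.28 (standard error 0.0905, limma adjusted p = 0.00938). This call was lost without NC replicate 1 (-0.24, adjusted p = 0.081) and without sh-IRF1 replicate 2 (-0.27, adjusted p = 0.0684). MITF (ENSG00000187098, chr3:69739456-69968336), best known as the regulator of melanocytes, rested on 30 to 53 reads per library, with normalized counts of 53.3 and 54.4 in NC and 29.8 and 31.9 in sh-IRF1. Each control library was above each knockdown library, at a log2 fold change of -0.79 with a standard error of 0.322. Its adjusted p of 0.0452 from limma was close to the threshold, and the call did not hold with edgeR (adjusted p = 0.0549), with DESeq2 (adjusted p = 0.118) or with any 1 library left out (-0.83 to -0.74, highest adjusted p = 0.148). The melanocyte genes PMEL and MLANA, the tested ones among known MITF targets of that lineage, were not called.

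Divided by exonic length, TFE3 was the most abundant of the family in every library, at 222 normalized counts per kb in NC and 293 in sh-IRF1 (group means). TFEB stood at 93.8 and 77 per kb and MITF at 7.26 and 4.16 per kb in the same groups. TFEC, a relative expressed in myeloid cells that is not among the 48, lay between TFEB and MITF in NC, with 72.7 per kb, and rose to 98.7 per kb in sh-IRF1 (log2 fold change 0.44, limma adjusted p = 1.34e-05), above TFEB. The per kb level of TFE3 was 2.36 and 2.38 times that of TFEB in the NC libraries and 3.66 and 3.95 times in the sh-IRF1 libraries. TFEB made up 24.1% and 23.3% of the summed per kb level of TFEB, TFE3, MITF and TFEC in NC and 16.7% and 15.9% in sh-IRF1. The sum itself was 400 and 391 per kb in NC and 466 and 479 in sh-IRF1. The family RNA as a whole was thus no lower in the knockdown libraries, and its makeup moved from TFEB toward TFE3 and TFEC. The exonic length merges all annotated exons of a gene, giving 4.207 kb for TFE3, 6.722 kb for TFEB and 8.644 kb for TFEC. Per kb ratios, shares and orders of different genes, here and below, depend on these lengths. The change of 1 gene between the groups does not.

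**Figure D2:**
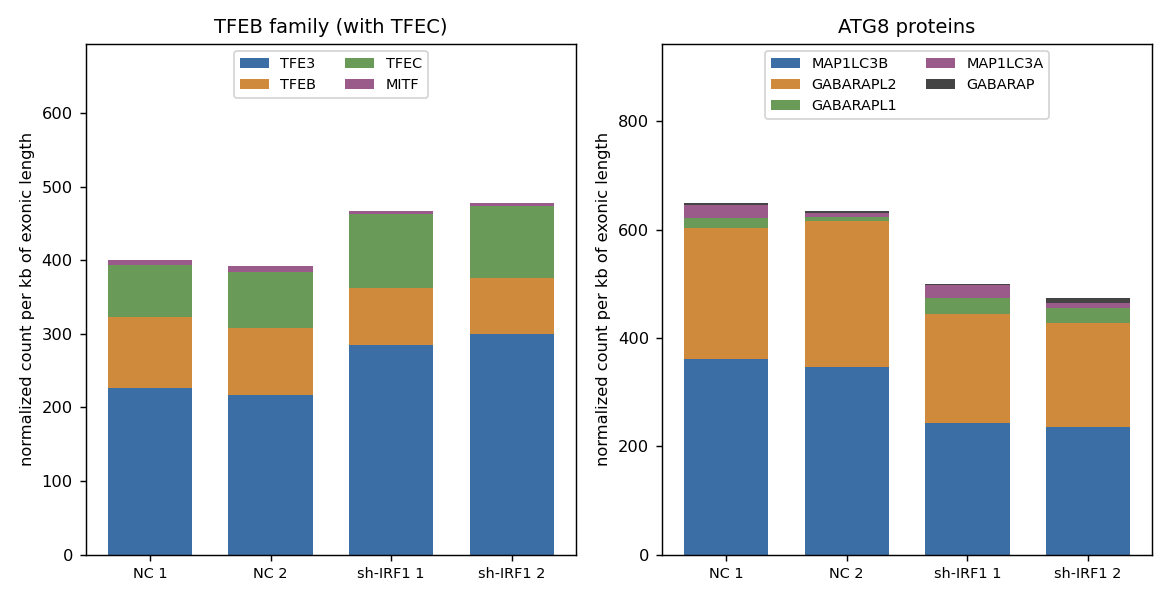
Normalized count per kb of exonic length (y axis, from 0) in each of the 4 libraries, stacked by gene, for the TFEB family with TFEC (left) and the ATG8 proteins (right). The family total at left is 400 and 391 in NC and 466 and 479 in sh-IRF1, and the ATG8 total at right, which includes the uncertain GABARAP row as deposited, is 650 and 635 in NC and 500 and 474 in sh-IRF1.

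TFEB family factors bind the palindrome CACGTG, most strongly with flanking bases as in TCACGTGA, which holds it. RefSeq promoter windows (250 bases before to 50 after a start site, GRCh38.p14) were at hand for 41 of the 48 genes, and 3 of the 41 held CACGTG (7.32%). The share was 12.7% among tested genes with a window (1291 of 10131) and 8.77% among all genes with one. ATG14, ATG3 and VPS11 were the 3 genes, and the 80 bases before a start site of each are shown 5′ to 3′ on the strand of the gene, since these are the only autophagy promoters of the set with the palindrome, which is in capitals.
ATG14 (chr14:55411831-55411910, minus strand): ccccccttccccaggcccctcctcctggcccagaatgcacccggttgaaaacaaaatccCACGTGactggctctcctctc
ATG3 (chr3:112561963-112562042, minus strand): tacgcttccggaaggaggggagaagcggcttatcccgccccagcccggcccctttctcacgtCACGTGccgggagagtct
VPS11 (chr11:119067738-119067817, plus strand): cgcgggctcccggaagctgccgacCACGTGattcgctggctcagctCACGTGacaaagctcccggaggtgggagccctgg
The palindrome began at -21 in ATG14, at -18 in ATG3 and at -56 and -34 in VPS11, counted from the start site. ATG3 held a further copy just after the start site, outside the bases shown. TCACGTGA was in 2 of the 41 genes with a window (4.88%), VPS11 and, at that further copy, ATG3, against 2.35% of tested genes. A pair of GAAA copies spaced by 2 bases, the core of the interferon response element that IRF factors bind, was searched on both strands. It was found in 0 of the 41 genes with a window, against 4% of tested genes. ATG14 and VPS11 were called higher and ATG3 was not called, as described with their groups. A match describes the letters of the window, not a bound site, and a window without one says nothing about binding elsewhere.

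The genes of the initiation complex were lower or not called in sh-IRF1, with a median log2 fold change of -0.38. Of the 5 genes 2 were lower (40%, against 21.9% of all tested genes) and 0 were higher (against 20.3%). RB1CC1 (ENSG00000023287), which encodes FIP200, the scaffold of the ULK1 complex, had normalized counts of 2390 and 2635 in NC and 1219 and 1160 in sh-IRF1. The knockdown libraries were far below the controls, and 47.3% of the NC mean remained (log2 fold change -1.08, standard error 0.0564, limma adjusted p = 4.3e-21). ATG101, which stabilizes ATG13 in that complex, had 449 and 487 normalized counts in NC and 304 and 322 in sh-IRF1. The groups were again apart (log2 fold change -0.58, standard error 0.11, limma adjusted p = 2.55e-05), although 19.2% of its exonic sequence overlaps a gene on the opposite strand. The kinase gene ULK1 (log2 fold change -0.12, 95% interval -0.24 to -0.005) was not called. ATG13, the adaptor, had 2931 and 3053 normalized counts in NC and 2988 and 3072 in sh-IRF1, overlapping between the groups and not called (0.02, 95% interval -0.07 to 0.11). ULK2, the second kinase, was not called at -0.38 (limma adjusted p = 0.0612), with overlapping groups. Its log2 fold change was -0.17 without NC replicate 1 and -0.60 without NC replicate 2. The per kb level of ULK1 was 0.634 and 0.545 times that of RB1CC1 in the NC libraries and 1.09 and 1.19 times in the sh-IRF1 libraries, so that the kinase and its scaffold changed places in order.

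In the lipid kinase group that nucleates the membrane, 3 of 6 genes were higher (50%, against 20.3% of all tested genes). In the same group 0 were lower (against 21.9%), and the median log2 fold change was 0.20. ATG14, the subunit that directs the PIK3C3 complex to autophagosome formation, had normalized counts of 217 and 206 in NC and 309 and 325 in sh-IRF1. All of its knockdown values exceeded all control values (log2 fold change 0.58, standard error 0.133, limma adjusted p = 0.000337). FBXO34, which shares exonic bases with ATG14 on the opposite strand (20.8% of ATG14), moved the other way at -0.57. UVRAG, the subunit that takes the place of ATG14 in the endosomal form of the complex, had 941 and 861 normalized counts in NC and 1143 and 1120 in sh-IRF1. It was higher in both knockdown libraries and had the smallest p of the group (log2 fold change 0.33, standard error 0.0699, limma adjusted p = 0.00012). PIK3R4, the regulatory subunit, was higher at 0.24, a call lost without NC replicate 2 (0.19, adjusted p = 0.0725) or sh-IRF1 replicate 2 (0.21, adjusted p = 0.0912). BECN1, PIK3C3 and AMBRA1, the core scaffold, the catalytic subunit and a positive regulator, had log2 fold changes between 0.10 and 0.16 and were not called.

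**Figure D3:**
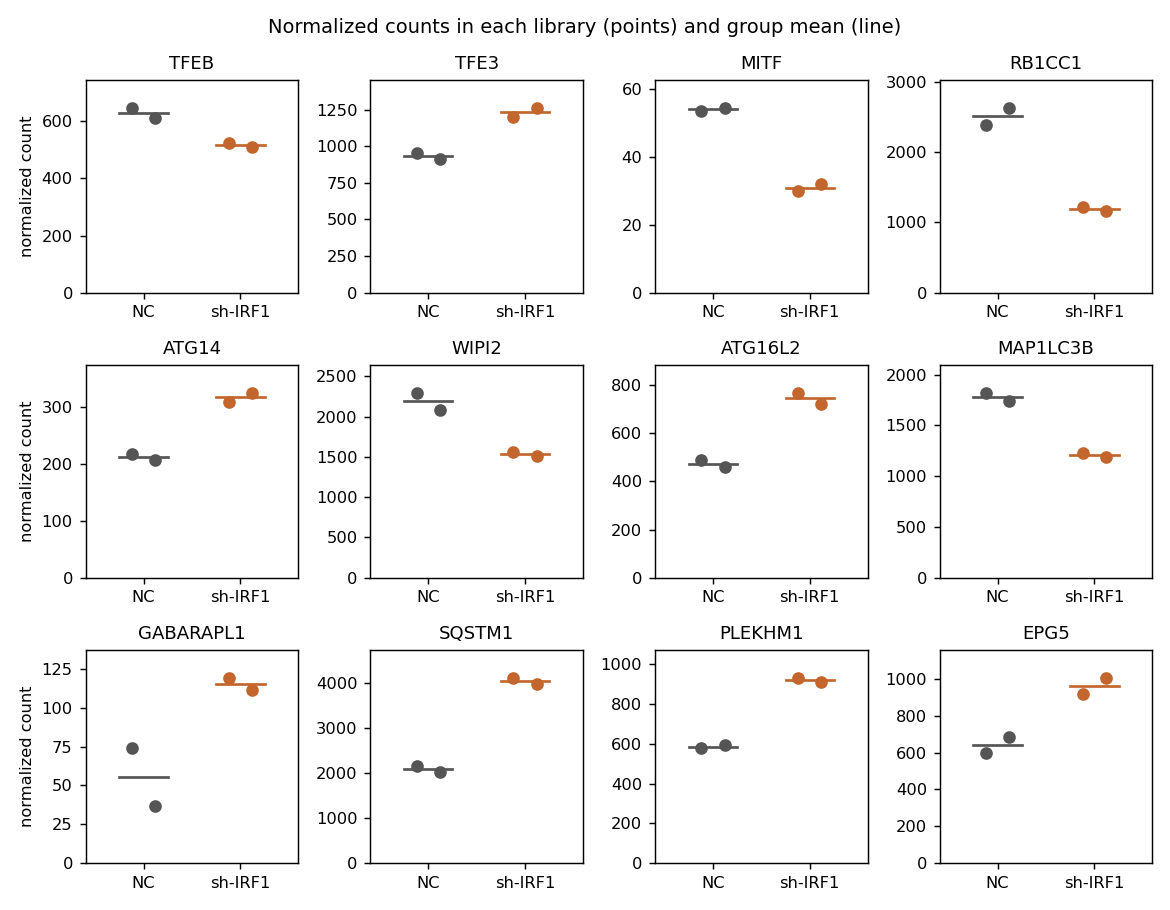
Normalized count (y axis, from 0, on a scale of its own for each gene) of 12 genes in each NC and sh-IRF1 library, with points for libraries and a line for the mean of the 2 libraries. All genes shown were called, so groups that stand apart are no separate result. RB1CC1 falls from 2390 and 2635 to 1219 and 1160, and SQSTM1 rises from 2140 and 2005 to 4105 and 3963. The NC points of GABARAPL1 lie at 73.9 and 37.

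Of the 5 genes for membrane expansion, 3 were lower (60%, against 21.9% of all tested genes) and 1 was higher (20%, against 20.3%). Their median log2 fold change was -0.28. WIPI2, the lipid-binding protein that recruits ATG16L1, had normalized counts of 2297 and 2087 in NC and 1564 and 1510 in sh-IRF1. The controls stood above the knockdown libraries (log2 fold change -0.51, standard error 0.0548, limma adjusted p = 8.18e-11). The related WIPI1 was expressed at a low level, between 53.4 and 69.3 normalized counts, and was not called. It shares 28.1% of its exonic bases with ARSG on the opposite strand, which was itself higher at 0.99. The lipid transfer proteins ATG2A and ATG2B moved in opposite directions. ATG2A had normalized counts of 1273 and 1290 in NC and 1606 and 1615 in sh-IRF1 (log2 fold change 0.33, limma adjusted p = 7.31e-06). ATG2B had 820 and 846 in NC and 609 and 655 in sh-IRF1 (log2 fold change -0.40, limma adjusted p = 6.48e-05). The libraries of the groups did not overlap for either gene. ATG9A, the scramblase of the seed vesicles, was lower at -0.28 (limma adjusted p = 0.00249), which was -0.19 (adjusted p = 0.126) without sh-IRF1 replicate 2, and 38.8% of its exonic sequence overlaps a same-strand gene of at most 8.43 normalized counts.

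Among the 11 genes of the conjugation systems 4 were higher (36.4%, against 20.3% of all tested genes) and 0 were lower (against 21.9%). Their median log2 fold change was 0.30. ATG16L2, a relative of the ATG16L1 subunit with a smaller known part in autophagy, had normalized counts of 490 and 458 in NC and 769 and 721 in sh-IRF1. Both knockdown values were above both controls, and the log2 fold change was 0.65 (standard error 0.0894, limma adjusted p = 4.1e-08). ATG16L1 was higher at 0.40, or 0.27 (adjusted p = 0.115) without sh-IRF1 replicate 1. ATG7, the E1-like enzyme that activates both ubiquitin-like proteins, was higher at 0.37 (limma adjusted p = 7.08e-05), while VGLL4, which overlaps 18.1% of its exonic bases on the opposite strand, was lower at -0.36. ATG4D, one of the proteases that process ATG8 proteins, was higher at 0.30 (limma adjusted p = 0.000892), and KRI1 on the opposite strand, sharing 14.7% of its exonic bases, was lower at -0.24. The other proteases ATG4A, ATG4B and ATG4C were not called, at 0.39, -0.09 and 0.14. ATG3 and ATG10, the E2-like enzymes, and ATG5 and ATG12, which ATG10 joins into a conjugate, were not called either. ATG12 had the lowest log2 fold change of the group (-0.14, 95% interval -0.31 to 0.02), with 775 and 727 normalized counts in NC and 654 and 707 in sh-IRF1. ATG3 stood at 1592 and 1542 normalized counts in NC and 1516 and 1416 in sh-IRF1 (-0.10, 95% interval -0.21 to 0.02). ATG10 was not called at 0.33 (limma adjusted p = 0.084). Its log2 fold change was 0.18 without NC replicate 1 and 0.48 without NC replicate 2.

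The ATG8 proteins, which coat the forming membrane and hold cargo receptors, were lower for both of the members with most reads, MAP1LC3B and GABARAPL2, and higher for GABARAPL1. MAP1LC3B, the LC3 protein used as a marker of autophagosomes, had normalized counts of 1823 and 1744 in NC and 1229 and 1191 in sh-IRF1. The knockdown libraries lay below both controls, with 67.9% of the NC mean left (log2 fold change -0.56, standard error 0.0585, limma adjusted p = 4e-11). The near-identical copy MAP1LC3B2 had 4.26% as many reads as MAP1LC3B and was not called. GABARAPL2, also known as GATE-16, had 726 and 810 normalized counts in NC and 604 and 575 in sh-IRF1. It too was lower in both knockdown libraries (log2 fold change -0.38, standard error 0.0851, limma adjusted p = 0.000256). GABARAPL1 went the other way, from 73.9 and 37 normalized counts in NC to 119 and 111 in sh-IRF1. The groups did not overlap, but the NC libraries were far apart, and the log2 fold change of 1.13 (standard error 0.258, limma adjusted p = 0.000342) was 1.62 without NC replicate 1 and 0.64 (adjusted p = 0.0361) without NC replicate 2. MAP1LC3A had at most 27.7 normalized counts in any library, with overlapping groups and no call (0.21, 95% interval -0.89 to 1.31). GABARAP was listed with normalized counts between 6.96 and 15.9. It shares 48.2% of its exonic bases with a same-strand gene, so reads that fit both may not be in its row, and its level is uncertain. Per kb of exonic length, and with the GABARAP row as deposited, the 5 genes summed to 650 and 635 in NC and 500 and 474 in sh-IRF1, with MAP1LC3B at 55.7% and 54.5% of the sum in NC and 48.8% and 49.9% in sh-IRF1, and GABARAPL1 at 2.8% and 1.44% in NC and 5.89% and 5.81% in sh-IRF1. These sums and shares do not hold for the family if GABARAP reads are missing.

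Of the 5 cargo receptor genes 2 were higher (40%, against 20.3% of all tested genes) and 1 was lower (20%, against 21.9%). SQSTM1 (ENSG00000161011, chr5:179806398-179838078), which encodes p62, the receptor for ubiquitinated proteins and itself a substrate of autophagy, had normalized counts of 2140 and 2005 in NC and 4105 and 3963 in sh-IRF1. The 2 knockdown libraries were close to each other and at 195% of the NC mean (log2 fold change 0.96, standard error 0.0453, limma adjusted p = 8.7e-23), the smallest p of the 47 genes. It shares 22.4% of its exonic bases with MRNIP on the opposite strand, which had only between 126 and 175 normalized counts and was not called. NBR1, a related receptor, was higher at 0.23 (standard error 0.0596), which was 0.16 (adjusted p = 0.0513) without NC replicate 1 and 0.20 (adjusted p = 0.0642) without sh-IRF1 replicate 2. CALCOCO2, which encodes NDP52, a receptor for bacteria and mitochondria, had 2983 and 2942 normalized counts in NC and 2314 and 2437 in sh-IRF1. Its controls were above its knockdown libraries, at -0.32 (standard error 0.046, limma adjusted p = 1.25e-07). TAX1BP1, a relative of CALCOCO2, was not called at 0.09. OPTN, the receptor optineurin, was not called at -0.21 (limma adjusted p = 0.0535). Its log2 fold change was -0.11 without NC replicate 1 and -0.31 without NC replicate 2. Measured per kb, SQSTM1 had 0.785 and 0.768 times the level of MAP1LC3B in the NC libraries and 2.23 and 2.22 times in the sh-IRF1 libraries. Against CALCOCO2 the ratio was 0.79 and 0.751 in NC and 1.96 and 1.79 in sh-IRF1, so SQSTM1 passed both genes in order per kb. Not divided by length, SQSTM1 was already above MAP1LC3B in NC (2140 and 2005 against 1823 and 1744 normalized counts).

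Fusion with the lysosome was, of the 8 role groups, the one with the highest share of genes called higher. These were 7 of 8 (87.5%, against 20.3% of all tested genes), with 1 lower (12.5%, against 21.9%). The median log2 fold change of the group was 0.36. PLEKHM1, an adaptor that joins RAB7, the HOPS tether and ATG8 proteins, had normalized counts of 580 and 594 in NC and 933 and 911 in sh-IRF1. The knockdown libraries were clear of the controls (log2 fold change 0.65, standard error 0.0797, limma adjusted p = 2.6e-09). Its pseudogene PLEKHM1P1 had 22.2% as many reads, so part of this count may be wrongly assigned. EPG5, a tether that RAB7 recruits, had 597 and 684 normalized counts in NC and 922 and 1008 in sh-IRF1. It was higher in both knockdown libraries, at 0.59 (standard error 0.0809, limma adjusted p = 3.61e-08). The HOPS complex is the tether of late endosomes and lysosomes. Its 4 genes in this group were all called higher by a similar amount. Their log2 fold changes were 0.38 for VPS11, 0.31 for VPS18, 0.25 for VPS39 and 0.34 for VPS41. The HOPS subunits VPS33A and VPS16 are outside this group and belong to the further list below. VPS33A was higher (0.45, limma adjusted p = 0.00107). VPS16 was not called (0.11, limma adjusted p = 0.344), with overlapping groups. A call was thus not shared by every HOPS subunit. VPS11 and VPS18 are core subunits, and VPS39 and VPS41 bind RAB7 and vesicle membranes. Without sh-IRF1 replicate 2 VPS41 had 0.24 and was no longer called (adjusted p = 0.0646). STX17, the SNARE of the autophagosome, was higher at 0.44 (limma adjusted p = 0.0175), a call lost with DESeq2 (adjusted p = 0.0666), without NC replicate 2 (0.26, adjusted p = 0.235), without sh-IRF1 replicate 1 (0.43, adjusted p = 0.116) and without sh-IRF1 replicate 2 (0.45, adjusted p = 0.0957). RAB7A, the GTPase of late endosomes that PLEKHM1 and EPG5 bind, was lower instead, with 4681 and 4520 normalized counts in NC and 3874 and 3601 in sh-IRF1. Both controls exceeded both knockdown libraries (log2 fold change -0.30, standard error 0.0406, limma adjusted p = 2.91e-08). Per kb it was nevertheless the most abundant of the 47 tested genes in the NC group, at 639, and stood at 520 in sh-IRF1, where SQSTM1 reached 535.

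**Figure D4:**
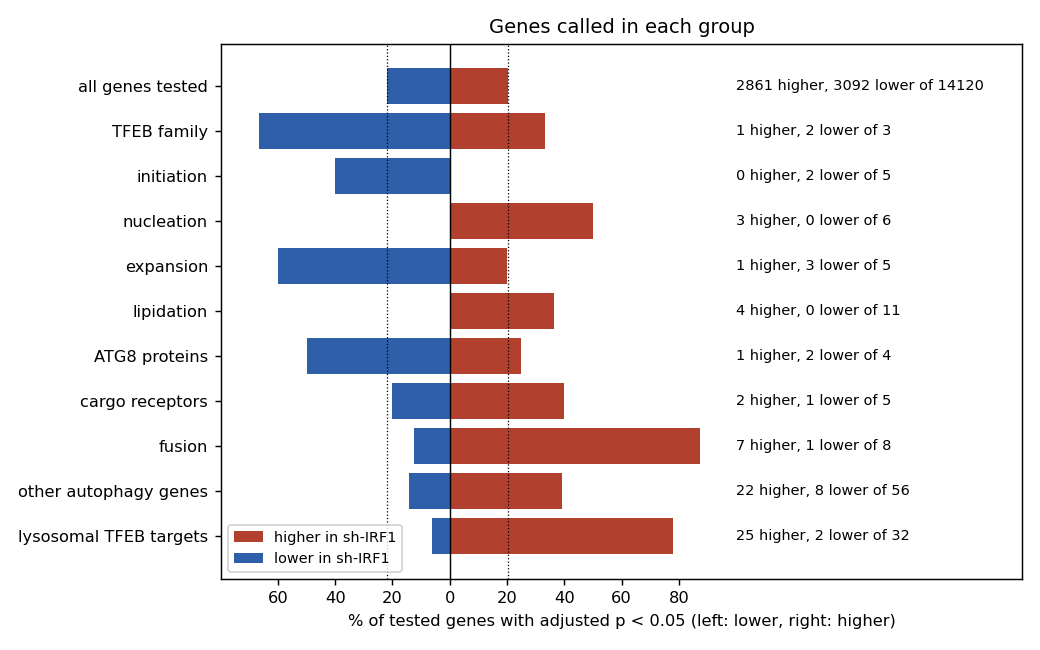
Share of tested genes called lower (left, blue) and higher (right, red) in sh-IRF1 at a limma adjusted p under 0.05 (x axis, %), for all tested genes, each role group and the related lists, with dotted lines at the shares of all tested genes (21.9% lower, 20.3% higher). Fusion genes (7 of 8) and lysosomal targets (25 of 32) reach farthest to the right, and the groups are small.

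Other autophagy genes outside the 48 were read from a further list. Of 60 listed genes 56 were tested, 22 were called higher (39.3%), 8 were called lower (14.3%) and the median log2 fold change was 0.11. Among all tested genes 20.3% were called higher and 21.9% lower. By the smallest p, the higher genes were led by TOLLIP, a ubiquitin-binding receptor (0.58, limma adjusted p = 1.67e-13), TP53INP2, which brings ATG8 proteins out of the nucleus (1.06, adjusted p = 2.33e-11), and FLCN (0.75, adjusted p = 3.99e-11). FLCN encodes folliculin, which acts on Rag GTPases so that mTORC1 can phosphorylate TFEB and TFE3. The lower ones were led by PPP3R1, the regulatory subunit of calcineurin (-0.70, adjusted p = 1.53e-15), CCPG1, a receptor for the endoplasmic reticulum (-0.60, adjusted p = 3.06e-11), and PRKAA1, the catalytic subunit of AMPK (-0.46, adjusted p = 5.25e-11). Other genes share 34.5% of the exonic bases of PPP3R1 and 40% of those of CCPG1. In the subset of 17 genes that control TFEB, 9 were higher (52.9%) and 3 were lower (17.6%). The 3 lower ones were all calcineurin subunits, the phosphatase that removes phosphate from TFEB, namely PPP3R1, PPP3CB (-0.47) and PPP3CA (-0.28), while PPP3CC was not called. Among the 9 higher ones were FLCN with its partners FNIP1 (0.39) and FNIP2, the Rag GTPase RRAGC (0.49) and both TSC genes (TSC1 0.59, TSC2 0.35), named after their values were seen. FNIP2 had normalized counts of 56.4 and 71.9 in NC and 229 and 222 in sh-IRF1. Its knockdown values were several times the controls, at a log2 fold change of 1.81 (limma adjusted p = 9.47e-11). The other subsets held 10 core genes (2 higher, or 20%, and 0 lower), 15 selective receptors (6 higher, 4 lower), 8 further fusion genes (2 higher, or 25%, and 0 lower) and 6 other inducers (3 higher, 1 lower). For the core and further fusion genes the share called higher was thus near the 20.3% of all tested genes.

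Lysosomal genes known as targets of TFEB were mostly higher, with 25 of 32 tested genes called higher (78.1%, against 20.3% of all tested genes). Only 2 were called lower (6.25%, against 21.9%), and the median log2 fold change was 0.46. Beyond 0.5 there were 14 higher (43.8%, against 8.27% of all tested genes) and 0 lower (against 7.56%). MCOLN1, the lysosomal calcium channel, is in this list and in the one above. CTSD, CTSA and TPP1, which encode lysosomal proteases, had the smallest p, with log2 fold changes of 1.40, 1.25 and 0.95. CTSZ, another protease, was lower at -0.23. Other genes share 48% of the exonic bases of CTSD, 21.5% of those of CTSA and 31.7% of those of CTSZ. Without sh-IRF1 replicate 2 the count called lower was 1. Of 19 of these genes with a promoter window 10 held CACGTG (52.6%), against 12.7% of tested genes. It was held by 3 of 41 of the autophagy and TFEB family genes and 9 of 47 of the other autophagy genes (19.1%). The lysosomal genes were listed as known TFEB targets, so a high share of the TFEB site among them is no independent result. No test of one group of genes against another was made.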

How the data were processed

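Total RNA of 4 MV4-11 libraries was sequenced from TruSeq RNA libraries. The submitters' processing notes name HISAT2 (2.0.5) and hg38, and the methods name FPKM and DESeq2. The counter, the annotation and whether strand was used are not given in the sources used here. What the authors deposited is a normalized signal, in which every read count of a library is divided by the size factor of that library. In all 4 libraries 100% of values were whole multiples of the value of 1 read (within 0.001 of a read), so reads were recovered for the count tests; for sh-IRF1 replicate 1 that step, 0.995, is close to 1. All 4 columns were used. The groups came from the labels.

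The main test was limma (3.58.1, R 4.3.3, trend and robust shrinkage) on log2(normalized count + 1) for 14120 genes with at least 10 in 2 libraries, with Benjamini-Hochberg adjustment over all of them. Replicates differed by more than sampling noise (chi-square per gene 2.52 in NC and 2.37 in sh-IRF1). Alternatives used edgeR (4.0.16) and DESeq2 (1.42.0) on recovered reads, other scalings, filters and pseudocounts, a replicate block, a minimum fold change, and each library left out. Symbols matched 23456 of 23622 identifiers. Exonic length (all exons of a gene merged), positions and overlaps came from GENCODE 44, and promoters from RefSeq (GRCh38.p14). The genes and lists were chosen with earlier results of these data known. Library values were given for TFEB, TFE3 and MITF, for every gene called beyond a log2 fold change of 0.5 and for the genes of smallest p, higher and lower, of a role group; of the other lists, the 3 smallest p in each direction were named. Some genes of these lists are not reported here by name. The scripts were tested on simulated data. A comparison of protein sequences was not made here.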

Additional observations from a re-analysis of the deposited data

How the results depend on the processing

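Of the 30 autophagy and TFEB family genes called, 22 kept their call and direction in all 15 alternatives that test every gene at any fold change, 8 lost it in at least 1 (TFEB, MITF, PIK3R4, ATG9A, ATG16L1, NBR1, STX17 and VPS41) and 0 changed sign. edgeR also called 29 of the 30 and DESeq2 28. A log2 fold change beyond 0.5 cut the counts the most, to 1168 higher and 1067 lower of all genes, 6 and 5 of the 47, 8 and 3 of the other autophagy genes, and 14 and 0 of the lysosomal targets, since it removes the many small changes. Leaving out 1 library at a time gave between 1 and 2 lysosomal targets called lower. Total-count scaling moved the median of all genes to 0.042 and called 23 of the 47 higher and 10 lower, adding BECN1 (0.20), ATG4A (0.44), ATG10 (0.38) and TAX1BP1 (0.14). The sign of 3 uncalled genes was not fixed: ATG13 lay between -0.011 (without NC replicate 1) and 0.048, and was -0.0014 without sh-IRF1 replicate 2. ATG5 lay between -0.12 and 0.086 (without sh-IRF1 replicate 2), and was 0.025 under total-count scaling and 0.014 without NC replicate 1. MAP1LC3A lay between -0.61 (without NC replicate 2) and 1.03, and was -0.30 without sh-IRF1 replicate 1. Replicate numbers did not pair the libraries (correlation of deviations 0.0032 over 11042 genes); with a replicate block 19 of the 47 were higher and 11 lower, MITF was no longer called (adjusted p = 0.0523) and OPTN was (adjusted p = 0.0466). ULK2 was called by edgeR (adjusted p = 0.0475). The cause of these shifts was not tested. With 2 libraries a group, low genes such as MITF, GABARAPL1 and MAP1LC3A are the least certain.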

Other observations

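Some genes of mitophagy, the breakdown of mitochondria by autophagy, are outside the 48, and those given here were chosen after their values were seen. BNIP3, a receptor on the outer mitochondrial membrane that hypoxia induces, had normalized counts of 206 and 225 in NC and 63.7 and 52.5 in sh-IRF1. Both knockdown libraries were far below both controls (log2 fold change -1.88, limma adjusted p = 7.23e-11). BNIP3L, its relative, was lower at -0.41 (limma adjusted p = 1.36e-09). PINK1, the kinase that marks damaged mitochondria, had 330 and 321 normalized counts in NC and 626 and 576 in sh-IRF1, at 0.88 (limma adjusted p = 7.84e-10). Other genes share 41.7% of the exonic bases of PINK1. FKBP8, a receptor on the outer mitochondrial membrane, was higher at 0.18 (limma adjusted p = 3.63e-06), and FUNDC1, a further receptor, was not called at -0.23.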
